A study of Mus musculus with 12 samples.

Results

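The NNMT inhibitor 5-amino-1-methylquinolinium was given alone, without TGFβ, and its effect on gene expression was read from 6 of the 12 libraries of the study. These are the 3 libraries labelled NNMTi (50 µM inhibitor for 48 h) and the 3 untreated control libraries of the same 48 h, chosen by their labels. The other 6 libraries received TGFβ at 10 ng/mL, 3 without and 3 with the same inhibitor dose, and enter here only where the inhibitor effect is set against that in TGFβ-treated cells. The cells are im-TEC, a conditionally immortalized line of mouse kidney tubular epithelial cells. All groups share the same history: the line was kept at 33 °C with interferon-gamma at 10 ng/mL, in medium with serum, insulin, transferrin, selenite, triiodothyronine, hydrocortisone and epidermal growth factor, and was then held for 7 days at 37 °C without interferon-gamma to lower its SV40 large T antigen. The study rests on this 1 cell line, and no label states whether a replicate is a culture of its own. The p-values therefore speak to the spread among these libraries alone, which may be technical.

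Nicotinamide N-methyltransferase (NNMT) moves a methyl group from S-adenosylmethionine to nicotinamide, giving 1-methylnicotinamide and S-adenosylhomocysteine. It therefore sits between the salvage of NAD, which starts from nicotinamide, and the methionine cycle, which supplies the methyl groups for histones, DNA and small molecules. In the kidney the enzyme is studied mainly in injured and fibrotic tubules, where epithelial cells take on contractile, matrix and senescence-related genes.

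The 6 libraries held 7936902 to 9458864 counts assigned to genes, which places the floor of 3 counts at 0.317 to 0.378 CPM, the depth-normalised count. Levels below are CPM on library sizes scaled by TMM, and the libraries come from the 3′ ends of transcripts. The renal transcription factor *Pax8* (208 to 244 CPM in controls) and the water channel *Aqp1* (1007 to 1091 CPM) were well covered, whereas the defining markers of mature tubule segments *Hnf4a*, *Slc34a1*, *Umod* and *Calb1* had no count in the 6 libraries and the epithelial cadherin *Cdh1* had 1 count over the controls and 3 over the inhibitor libraries. *Pdgfra*, *Lum* and *Thy1* of fibroblasts, *Cdh5* and *Kdr* of endothelium, *Adgre1* and *Cd3e* of immune cells and *Nphs1* of podocytes also had no count. Reads outside annotated genes made up 25.9 ± 0.255% (SD, n = 3) of counts in controls and 25.7 ± 1.41% with the inhibitor (exact permutation p = 1). Replicates of a group were distinct libraries, since a chi-square test of their counts over genes gave 3.23 to 8.69 for each degree of freedom. In bulk RNA of this kind, fewer cells carrying a transcript and less transcript per cell cannot be told apart.

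The inhibitor changed many genes, mostly by modest amounts, and the large changes were mainly falls. Of 12953 genes tested in edgeR on the 6 libraries, 2931 (22.6%) passed an adjusted p of 0.05, 1287 of them higher (9.94%) and 1644 lower (12.7%). These shares are the background for every gene group below. The median called gene rose 1.31-fold or fell 1.42-fold. At 2-fold or more, 79 genes were higher (0.61%) and 356 lower (2.75%), and at 4-fold or more 12 were higher and 87 lower. The median change of all genes tested was 0.01 on the log2 scale. With library sizes scaled by their totals alone, 838 genes were called higher and 2203 lower, so the share of calls that were higher was 27.6% in place of 43.9%. When all 12 libraries shared 1 estimate of the spread, 1123 genes were called (8.27%), 335 higher (2.47%) and 788 lower (5.8%). Of these, 1094 were among the 2931, all in the same direction. Unless said otherwise, a named gene that rose or fell was called in both fits.

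**Figure D1:**
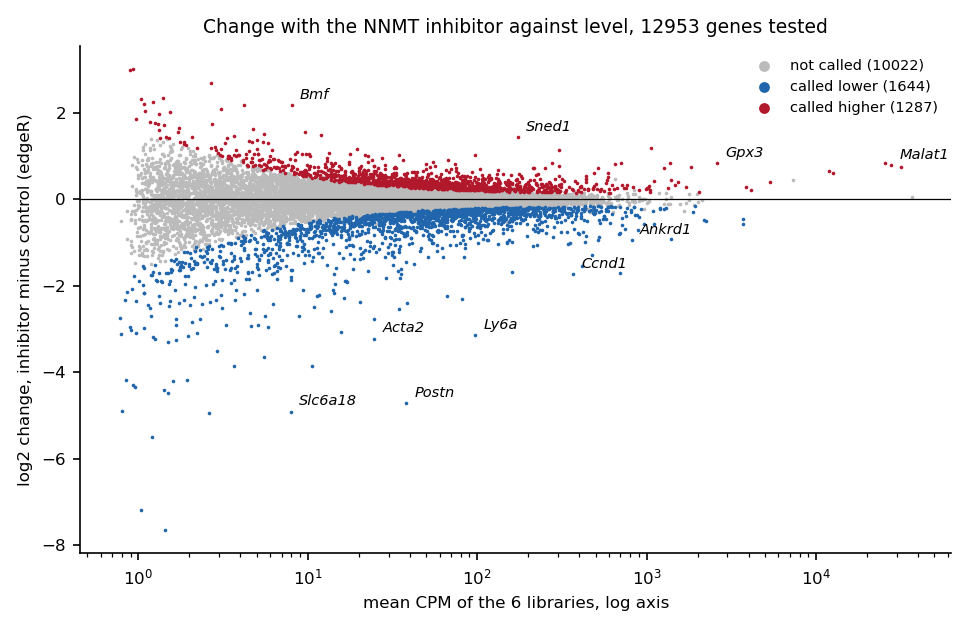
Change with the inhibitor against level. Each point is 1 of the 12953 genes tested, with the mean CPM of the 6 libraries on a log axis and the edgeR log2 change (inhibitor minus control) on the vertical axis. Blue points are the 1644 genes called lower and red points the 1287 called higher. The falls reach further from 0 than the rises, as for Postn at -4.71 and Ly6a at -3.14 against Bmf at 2.19. The 2 lowest points have no count with the inhibitor, and their fitted values are not bounds.

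*Nnmt* itself, the gene of the targeted enzyme, stood at 28.4, 23.3 and 28.9 CPM in the controls and at 15.6, 20.4 and 22.7 CPM with the inhibitor. All 3 inhibitor libraries lay below the 3 controls, and the fall of 0.46 ± 0.14 (SE) on the log2 scale had an edgeR adjusted p of 0.0174. The call ended in the fit of 12 libraries (adjusted p = 0.0907) and without control replicate 1 (0.0726), control replicate 3 (0.0873) or NNMTi replicate 1 (0.118). The compound acts on the enzyme, so the transcript is no check of its activity.

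Around the enzyme, most transcripts of NAD metabolism did not pass the test. Of 29 tested members of the NAD and nicotinamide list, 3 were higher and 3 lower (10.3% each), close to the background. *Bst1*, an enzyme that cleaves NAD at the cell surface, fell from 225, 210.0 and 202 CPM to 109.9, 112 and 102 CPM, with no overlap between the groups. *Slc25a51*, the carrier of NAD into mitochondria, rose 1.33-fold from 161, 175 and 178 CPM to 226, 222 and 236 CPM (edgeR adjusted p = 7.81e-06). *Nampt*, the rate-limiting enzyme of NAD salvage, stood at 179.9, 175 and 174 CPM in controls and 243, 206 and 226 CPM with the inhibitor, a difference called in the 6 libraries (edgeR adjusted p = 0.000122) and not in the fit of 12 (adjusted p = 0.136).

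Among 26 tested genes of the methionine cycle, transsulfuration and small-molecule methyltransferases, 3 were higher and 6 lower. In the fit of 12 libraries 2 were higher and 1 lower. *Inmt*, another methyltransferase that uses S-adenosylmethionine, which methylates indolamines, fell 3.52-fold, from 47.5, 55.5 and 60.5 CPM to 17.0, 13.4 and 16.0 CPM (edgeR adjusted p = 4.37e-13). The groups did not overlap. *Ahcyl2*, a relative of the enzyme that clears S-adenosylhomocysteine, rose 1.43-fold, from 50.4, 51.0 and 47.9 CPM to 70.3, 72.8 and 70.5 CPM. *Mat2a*, which makes S-adenosylmethionine, stood at 274, 303 and 295 CPM in controls and 289.7, 292 and 289.6 CPM with the inhibitor, and *Ahcy*, which removes S-adenosylhomocysteine, at 2.18, 3.22 and 3.09 CPM and 2.25, 2.42 and 2.57 CPM. Neither passed the test (edgeR adjusted p = 0.986 and 0.715). In the serine and folate list 8 of 26 were lower and 1 higher: *Psat1*, of serine synthesis, fell 1.75-fold and *Ftcd*, of folate breakdown, 2.56-fold, while *Chdh*, which begins the oxidation of choline to betaine, rose 1.40-fold. Among 62 tested enzymes that write or erase histone and DNA methylation, 10 were higher and 5 lower, and 47 were not called. In the fit of 12 libraries 2 were higher and 2 lower. The methyltransferase *Ezh1* rose 1.38-fold and the demethylase *Kdm3a* 1.37-fold, while *Prmt1*, the main arginine methyltransferase, fell 1.5-fold and *Uhrf1*, which guides maintenance DNA methylation, 1.37-fold. The list's median was 0.04 and turned to -0.02 with library sizes alone. Of 16 tested polyamine genes, 4 were lower and none higher, among them *Eif5a* (1.44-fold), the protein that carries hypusine.

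The contractile and smooth-muscle cytoskeleton list showed the highest share of falls among the lists with at least 15 tested genes. Of 29 tested members, 24 were lower (82.8% against 12.7% of all genes) and 1 higher, with a median of -0.57 on the log2 scale. In the fit of 12 libraries 17 were lower and 1 higher. *Acta2*, smooth-muscle actin, fell from 45.3, 43.5 and 45.4 CPM to 5.51, 5.32 and 3.58 CPM, a 9.31-fold difference (-3.22 ± 0.15, edgeR adjusted p = 9.1e-17). *Tagln*, an actin-bundling protein, fell from 49.3, 42.6 and 36.4 CPM to 8.32, 5.68 and 4.70 CPM. *Cnn1*, calponin of smooth muscle, fell from 21.3, 19.8 and 17.9 CPM to 1.24, 1.81 and 1.01 CPM. The gap between the groups was wide for each of these genes: the lowest control lay above 4 times the highest inhibitor library. *S100a4*, a calcium-binding protein widely used as a mesenchymal marker, fell 4.92-fold (127, 136 and 145 CPM to 24.7, 29.9 and 28.4 CPM). The exception was *Mylk*, myosin light chain kinase, which rose 1.23-fold from 719, 755 and 762 CPM to 885, 904 and 952 CPM. *Myl6*, the non-muscle essential light chain, was at 135, 133 and 148 CPM against 137, 154 and 198 CPM and did not pass the test.

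The promoters of this group are shown because many contractile genes are controlled by serum response factor, which binds the CArG box. A strict CArG box, searched on both strands of the window from 250 bases before to 50 bases after each RefSeq start, lay in 4 of the 23 called-lower contractile genes with a promoter entry (*Cnn2*, *Filip1l*, *Myl9* and *Vcl*), or 17.4%. Of these, *Vcl* was not called in the fit of 12 (edgeR adjusted p = 0.0612). *Myl9* was not called in DESeq2 (adjusted p = 0.083), and its fitted fold of 8.53 became 55.4 without NNMTi replicate 3. It lay in 3 of 5 tested members that were not called lower (*Acta1*, *Myl6* and *Srf*). Counted by gene in the same way, 1.52% of the 9104 tested genes with a promoter entry held a CArG box. Counted by window, 1.63% of all 32851 promoter windows held one. The 2 windows below are those of *Cnn2*, a calponin, and *Filip1l*, which were chosen after their values were seen. *Cnn2* fell from 115, 125 and 102 CPM to 54.0, 55.9 and 57.7 CPM, and *Filip1l* from 134, 147 and 134 CPM to 90.0, 86.9 and 95.5 CPM. The sequences are the 250 bases before the start, with the CArG box in capitals, from RefSeq on GRCm38.p6 at chr10:79988350-79988599 (plus strand) for *Cnn2* and chr16:57548992-57549241 (plus strand) for *Filip1l*. The box ends 46 bases before the start of *Cnn2* and 52 bases before that of *Filip1l*.
Cnn2: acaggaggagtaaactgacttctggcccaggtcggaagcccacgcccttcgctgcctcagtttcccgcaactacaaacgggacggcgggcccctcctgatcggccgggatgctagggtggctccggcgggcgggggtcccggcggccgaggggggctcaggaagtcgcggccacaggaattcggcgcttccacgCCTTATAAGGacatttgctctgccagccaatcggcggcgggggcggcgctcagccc
Filip1l: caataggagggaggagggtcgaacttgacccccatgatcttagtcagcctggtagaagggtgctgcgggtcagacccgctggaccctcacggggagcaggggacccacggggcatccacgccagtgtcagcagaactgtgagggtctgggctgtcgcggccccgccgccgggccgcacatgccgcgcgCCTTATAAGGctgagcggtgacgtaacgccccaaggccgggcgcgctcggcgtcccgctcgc

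Genes of the fibrillar matrix fell as well, with named exceptions among the collagen-modifying enzymes. Of 32 tested members 17 were lower (53.1%) and 2 higher, with a median of -0.39, and in the fit of 12 libraries 12 were lower and 2 higher. *Postn*, periostin, a matricellular protein of healing tissue, fell 26.1-fold, from 89.6, 68.9 and 62.1 CPM to 3.15, 3.39 and 1.90 CPM (-4.71 ± 0.18, edgeR adjusted p = 1.88e-17). *Fn1*, fibronectin, fell 1.97-fold, from 587, 559.9 and 566 CPM to 289, 298 and 283 CPM, and *Fbln2*, fibulin-2, 3.16-fold. In both, the groups did not overlap and replicates stayed within narrow ranges. *Col1a1*, the main chain of type I collagen, was low throughout (6.42, 4.46 and 3.09 CPM in controls, 2.25, 5.32 and 3.47 CPM with the inhibitor) and its groups overlapped (edgeR adjusted p = 0.517). *Tnc*, tenascin-C, stood at 854, 809 and 805 CPM against 933, 922 and 830.2 CPM and was not called. The exceptions were both prolyl 4-hydroxylase subunits, which modify collagen in the endoplasmic reticulum: *P4ha2* rose 1.5-fold (107, 108 and 99.4 CPM to 162, 159.9 and 149.9 CPM) and *P4ha1* 1.24-fold. In the basement membrane list, 3 of 15 were lower and 1 higher. The summed level of the 20 fibroblast markers was 39.0 to 48.0 CPM in controls and 17.8 to 21.5 CPM with the inhibitor. Only 2 of these markers passed the filter, of which *Islr* fell 2.32-fold, and *Pdgfra*, *Lum* and *Thy1* had no count in either group.

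Members of the TGFβ and activin pathway moved in both directions although no TGFβ was added. Of 36 tested SMAD targets and pathway genes, 13 were lower and 10 higher. Among the ligands and their binders, *Tgfb2* fell 2.00-fold, from 192, 204 and 205 CPM to 102, 98.1 and 102 CPM, and *Inhba*, a subunit of activin A, 3.05-fold, from 56.4, 50.4 and 53.3 CPM to 17.3, 15.6 and 19.5 CPM. *Fst*, follistatin, which traps activin, fell 3.25-fold, from 1156, 1077 and 951 CPM to 354, 332 and 294 CPM (-1.70 ± 0.07, edgeR adjusted p = 6.45e-15). None of these groups overlapped. *Ltbp1*, which stores latent TGFβ in the matrix, fell 3.16-fold, and *Tgfb1* was not called (13.4, 9.42 and 11.1 CPM against 9.45, 8.71 and 6.71 CPM, edgeR adjusted p = 0.105). Among the targets, *Ccn2*, connective tissue growth factor, went from 519, 500.5 and 386 CPM to 249.9, 258 and 193 CPM, called in the 6 libraries (edgeR adjusted p = 0.00618) and not in the fit of 12 (adjusted p = 0.321). The 10 rises included the BMP-responsive inhibitors of differentiation *Id2* (934, 949 and 996 CPM to 1540.1, 1627 and 1599 CPM) and *Id4* (73.3, 62.3 and 55.7 CPM to 129.7, 136 and 123 CPM), by 1.66-fold and 2.03-fold. *Fstl3*, which binds activin, rose 2.06-fold in the 6 libraries (edgeR adjusted p = 0.000437) and was not called in the fit of 12 (adjusted p = 0.0516). The co-receptor *Tgfbr3* and the stress-responsive ligand *Gdf15* each rose 1.37-fold. Of 24 tested YAP and TEAD targets 8 were lower and 4 higher. *Ankrd1* fell 1.92-fold, from 1065, 1088 and 1071 CPM to 553, 555 and 573 CPM, and *Vgll3* 2.37-fold, while the kinase *Nuak2* rose 1.48-fold and *Ccn1*, at 1129, 1045 and 956 CPM against 922, 1003 and 762 CPM, was not called.

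**Figure D2:**
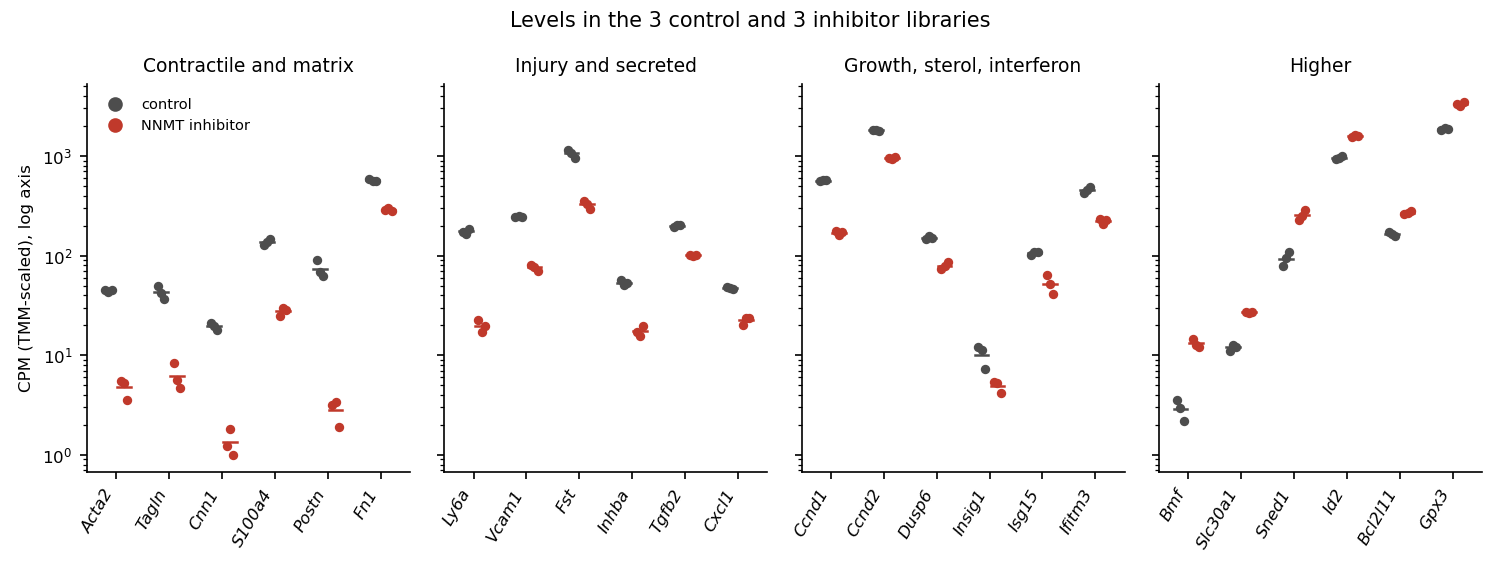
Levels of 24 genes in every library, as TMM-scaled CPM on a log axis. Grey points are the 3 controls, red points the 3 inhibitor libraries, and lines their means. In each of these genes the groups do not overlap: 18 lie lower with the inhibitor, such as Acta2 at 3.58 to 5.51 CPM against 43.5 to 45.4 CPM, and the 6 in the last panel lie higher.

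Genes that mark injured or incompletely repaired tubules were lower. Of 32 tested, 22 were lower (68.8%) and 4 higher, with a median of -0.73, and 20 were lower and 1 higher in the fit of 12. *Ly6a*, a surface protein of progenitor-like and inflamed cells, fell 8.79-fold, from 173, 166 and 186 CPM to 22.8, 17.0 and 19.7 CPM (-3.14 ± 0.09, edgeR adjusted p = 4.78e-22). *Vcam1*, an adhesion molecule of failed-repair tubule cells, fell 3.22-fold, from 244, 248 and 244 CPM to 80.9, 76.8 and 70.9 CPM. *Havcr1*, which encodes the injury marker KIM-1, was already low at 6.19, 7.43 and 6.91 CPM and fell to 0.787, 0 and 0.559 CPM, or from 181 to 12 counts. That ratio of 14.9 has a 95% counting interval of 8.30 to 29.3, and the fitted fold of 14.5 became 22.5 without NNMTi replicate 1. *Prom1*, another marker of this state, fell 3.09-fold. *Sox9*, a transcription factor of tubular repair, went the other way and rose 1.33-fold, from 136, 133 and 126 CPM to 176, 178 and 169 CPM. *Cp*, ceruloplasmin, was at 659, 692 and 694 CPM against 680.2, 667 and 692 CPM and did not pass the test.

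Secreted factors of the senescence-associated kind had the lowest median of the lists with at least 15 tested genes, -0.87: 21 of 32 were lower (65.6%) and 1 higher, 17 and 1 in the fit of 12. The chemokines *Cxcl5* and *Cxcl1*, which attract neutrophils, fell 3.45-fold (13.1, 12.3 and 11.8 CPM to 3.71, 4.84 and 2.24 CPM) and 2.12-fold (48.8, 47.6 and 46.3 CPM to 20.0, 23.5 and 23.7 CPM). *Igfbp2*, which binds insulin-like growth factors, fell 3.17-fold. *Igfbp7* (976, 962 and 1011 CPM against 905, 941 and 1103 CPM) and *Csf1* (504, 469.6 and 458 CPM against 452, 449.7 and 432 CPM) were not called. The lists for injury, matrix, growth factors and secreted factors share members, so their counts are not separate results. The 22 immune markers summed to 102 to 104 CPM in controls and 73.5 to 85.8 CPM with the inhibitor. Only 3 of them passed the filter, of which *Cd14*, a co-receptor for bacterial lipopolysaccharide, fell 2.06-fold. The pan-leukocyte gene *Ptprc* had 1 count over the controls and 3 over the inhibitor libraries.

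Genes of tubule identity were called lower more often than higher. *Aqp1* did not pass the test (1007, 1013 and 1091 CPM against 979, 1009 and 1063 CPM, edgeR adjusted p = 0.771). Of 15 tested proximal tubule genes 6 were lower (40%) and 2 higher, and 3 were lower and none higher in the fit of 12. They include the bicarbonate cotransporter *Slc4a4*, which fell 2.07-fold (95.9, 97.6 and 87.3 CPM to 44.0, 44.5 and 46.8 CPM), and the brush-border peptidase *Anpep*, which fell 2.80-fold. *Slc6a18*, an amino acid transporter of the proximal brush border, fell from 14.8, 16.1 and 15.4 CPM to 0.225, 0.967 and 0.335 CPM, or from 408 to 13 counts. That ratio of 30.9 has a 95% counting interval of 17.9 to 58.6, and the fitted fold of 30.1 became 52.3 without NNMTi replicate 2. Of the distal genes, the transcription factor *Gata3* and the potassium channel *Kcnj16* fell 2.06-fold and 1.81-fold, and the other 7 tested were not called. In the junction and keratin list 11 of 25 were lower and 4 higher. *Krt8*, keratin 8, fell 2.30-fold, from 63.9, 63.9 and 64.6 CPM to 27.7, 25.5 and 30.5 CPM, and *Cdh6*, the cadherin of developing proximal tubule, rose 1.34-fold, from 955, 956 and 935 CPM to 1191, 1302 and 1331 CPM.

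Transcripts linked to growth factor signalling were lower. Of 30 tested growth factor ligands and receptors, 18 were lower (60%) and 1 higher, with a median of -0.47. *Ccnd1*, cyclin D1, which drives entry into the cell cycle, fell 3.33-fold, from 558, 571 and 574 CPM to 179, 161 and 172 CPM (-1.73 ± 0.06, edgeR adjusted p = 1.5e-20), and *Ccnd2* fell 1.90-fold, from 1811, 1843 and 1797 CPM to 961, 937 and 970.2 CPM. The groups were far apart compared with their replicates. *Dusp6*, a phosphatase induced by ERK activity, fell 1.90-fold, from 146, 156 and 150.3 CPM to 73.8, 78.0 and 85.8 CPM. *Fosl1*, an AP-1 subunit, fell 2.99-fold and the transcription factor *Klf5* 2.20-fold. Among ligands, *Pdgfb* fell 1.89-fold, from 161, 142 and 124 CPM to 73.8, 79.9 and 71.7 CPM, and *Fgf1* 2.25-fold. The receptor *Fgfr2* was the member that rose, 1.32-fold. In the MYC and ribosome biogenesis list, 15 of 52 were lower and 2 higher: *Mycn* fell 5.16-fold from 116 to 22 counts and the nucleolar helicase *Ddx21* 1.38-fold. Of 73 tested ribosomal protein genes 66 were not called.

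Cell cycle genes fell by smaller amounts than cyclin D1. None of 49 mitosis genes and none of 58 DNA replication and G1/S genes was higher, while 19 (38.8%) and 18 (31%) were lower, 6 and 8 in the fit of 12. *Birc5*, survivin, fell 1.66-fold (85.9, 90.5 and 94.7 CPM to 60.3, 50.4 and 52.3 CPM), the mitotic kinase *Plk1* 1.51-fold and *Foxm1*, a transcription factor of mitotic genes, 1.5-fold. *Tk1*, thymidine kinase, fell 1.81-fold, from 48.0, 48.1 and 47.8 CPM to 28.2, 25.6 and 25.6 CPM. Many members did not pass the test: *Cenpe* was at 162, 164 and 156 CPM against 158, 159 and 161 CPM, and *Lig1*, DNA ligase 1, at 326, 348 and 328 CPM against 341, 304 and 322 CPM. *Mki67*, the proliferation marker Ki-67, was at 48.7, 57.6 and 53.4 CPM against 39.1, 42.9 and 36.6 CPM, called in the 6 libraries (edgeR adjusted p = 0.00176) and not in the fit of 12 (adjusted p = 0.165). The motif TTTGAA, the core of an element common in mitotic promoters, was searched on both strands of the same windows. It lay in 14 of 15 called-lower mitosis genes with a promoter entry and in 15 of 27 tested members that were not called lower. By gene, it lay in 13.7% of all tested genes with an entry, and by window in 17.9% of all windows.

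Among genes of arrest and the p53 pathway, 13 of 49 were higher and 8 lower. The balance turned in the fit of 12, with 3 higher and 6 lower. The inhibitor of cyclin D kinases *Cdkn2b* rose 1.32-fold, from 83.3, 80.5 and 89.5 CPM to 108, 111 and 114 CPM. *Cdkn2a*, the gene of p16 and p19Arf, was not called (548, 606 and 559 CPM against 570.5, 562 and 513 CPM). *Cdkn1a*, p21, stood at 1815, 1978 and 1978 CPM against 2096, 2237 and 2134 CPM, a 1.12-fold difference with an edgeR adjusted p of 0.0219 that ended in the fit of 12 (0.36), with library sizes alone (0.185), and without control replicate 1 (0.137), control replicate 2 (0.0614) or NNMTi replicate 2 (0.151). *Gadd45a*, a damage-responsive gene, rose 1.56-fold, from 72.9, 72.0 and 72.8 CPM to 111, 112 and 117 CPM. *Trp53* itself fell 1.63-fold, from 45.1, 42.6 and 40.4 CPM to 26.0, 27.2 and 25.6 CPM, and its targets *Perp* and *Plk2* fell 1.67-fold and 1.5-fold. *Lmnb1*, lamin B1, whose loss is a mark of senescence, fell 1.6-fold, from 119, 112 and 96.9 CPM to 69.0, 74.6 and 62.2 CPM. Within the BCL2 family, 5 of 17 were higher and 3 lower. The largest rises were in the pro-apoptotic members *Bmf*, from 3.55, 2.97 and 2.16 CPM to 14.7, 12.7 and 12.1 CPM (4.56-fold, edgeR adjusted p = 1.46e-08), and *Bcl2l11*, the gene of BIM, from 171, 163 and 156 CPM to 261, 269 and 279 CPM (1.65-fold).

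**Figure D3:**
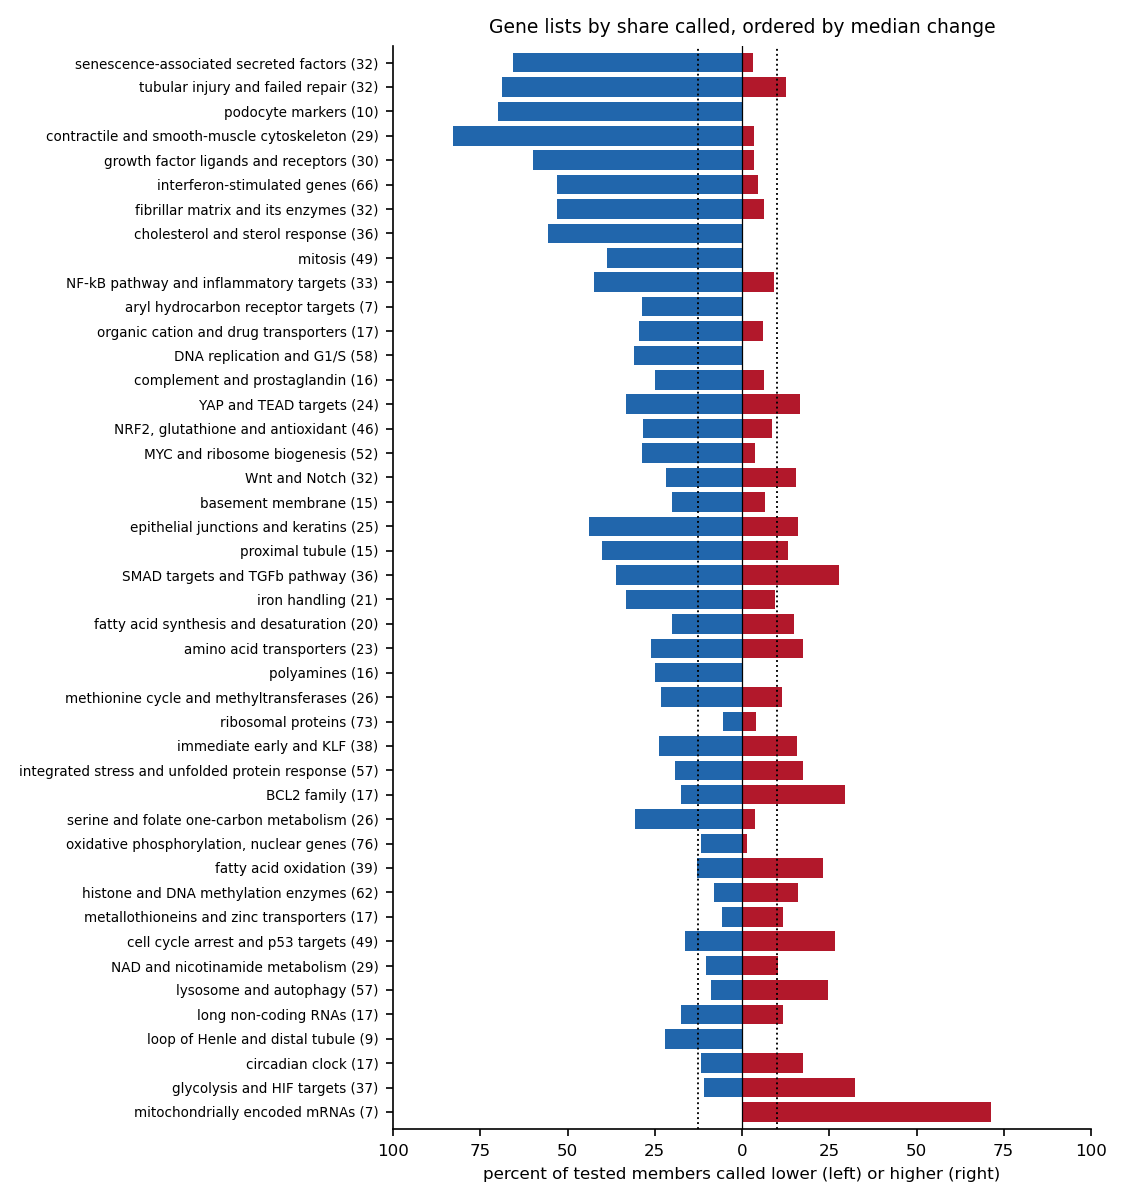
Share of tested members called lower (blue, left) or higher (red, right) in each of 44 gene lists with at least 5 tested genes, ordered by median log2 change. The number tested stands in brackets and the dotted lines mark the background over all genes, 12.7% lower and 9.94% higher. The bar for contractile genes reaches 82.8% lower, and that for mitochondrially encoded mRNAs 71.4% higher.

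Genes of cholesterol synthesis and uptake fell and none rose. Of 36 tested, 20 were lower (55.6%), 15 of them in the fit of 12, with a median of -0.37. *Insig1*, a sterol-regulated inhibitor of the pathway, fell 2.04-fold, from 12.0, 11.3 and 7.22 CPM to 5.40, 5.32 and 4.14 CPM (-1.03 ± 0.24, edgeR adjusted p = 0.00157). *Nsdhl*, an enzyme of sterol synthesis, fell 1.67-fold, from 29.4, 29.9 and 26.4 CPM to 18.4, 16.9 and 15.8 CPM. The groups did not overlap in either gene. *Scap*, the sterol sensor, was not called (65.0, 61.2 and 68.1 CPM against 71.4, 76.1 and 74.6 CPM). In fatty acid synthesis the calls were split, 4 lower and 3 higher of 20, and only falls were called in the fit of 12. *Scd1*, stearoyl-CoA desaturase, fell 2.07-fold, from 23.9, 22.7 and 24.2 CPM to 10.7, 12.8 and 10.8 CPM, and *Fasn*, fatty acid synthase, 1.53-fold, from 117, 121 and 129 CPM to 77.5, 75 and 87.8 CPM. Of 39 tested genes of fatty acid oxidation and lipid use, 9 were higher and 5 lower, but 1 and 4 in the fit of 12. *Acsl1*, which activates long-chain fatty acids, rose 1.66-fold, *Plin2*, which coats lipid droplets, fell 1.77-fold (99.7, 109.8 and 102 CPM to 57.1, 61.5 and 57.2 CPM), and the regulator *Pparg*, low in both groups, fell 2.63-fold. *Hadha*, of mitochondrial beta-oxidation, was at 166, 169 and 172 CPM against 167, 161 and 176 CPM.

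Interferon-stimulated genes were lower. Of 66 tested, 35 were lower (53%) and 3 higher, with a median of -0.40, and in the fit of 12 libraries 23 were lower and none higher. Both groups had been without interferon-gamma for the same time before seeding. *Ifitm3*, which blocks virus entry, fell 2.04-fold, from 429, 457 and 489 CPM to 234, 209.6 and 229 CPM (-1.03 ± 0.06, edgeR adjusted p = 2.81e-14). *Isg15*, a ubiquitin-like modifier, fell 2.02-fold, from 100.5, 109 and 108 CPM to 64.0, 51.9 and 41.1 CPM, and *Oas3*, a sensor of double-stranded RNA, 2.05-fold, from 9.05, 8.80 and 13.3 CPM to 5.17, 3.75 and 6.26 CPM. *Ifi203*, of the interferon-inducible DNA-binding family, fell 2.44-fold. The groups did not overlap in these genes. The class I histocompatibility gene *H2-K1* stood at 1311, 1285 and 1297 CPM in controls and at 1758, 1595 and 1543 CPM with the inhibitor, a rise called in the 6 libraries (edgeR adjusted p = 2.23e-05) and not in the fit of 12 (adjusted p = 0.184). *B2m*, which pairs with it, was at 2076, 2054 and 2041 CPM against 2129.6, 1945 and 1879 CPM, and *Irf1*, a transcription factor of the response, at 114, 122 and 109.9 CPM against 108, 107 and 98.3 CPM. Neither was called.

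The promoter windows of *Isg15* and *Oas3*, chosen after their values were seen, hold matches to the motif of the interferon-stimulated response element. Binding of transcription factors to these matches was not measured. The motif, GAAA followed by any 2 bases and GAAA again, searched on both strands, lay in 13 of 26 called-lower interferon-stimulated genes with a promoter entry (50%) and in 13 of 25 tested members not called lower (52%). By gene, it lay in 3.54% of all tested genes with an entry, and by window in 3.44% of all windows. The 250 bases before the start, with the matches in capitals, are from RefSeq on GRCm38.p6 at chr4:156200819-156201068 (minus strand) for *Isg15* and chr5:120777660-120777909 (minus strand) for *Oas3*. In *Isg15* 3 matches overlap in 1 block that ends 56 bases before the start, and in *Oas3* 1 match ends 65 bases before it.
Isg15: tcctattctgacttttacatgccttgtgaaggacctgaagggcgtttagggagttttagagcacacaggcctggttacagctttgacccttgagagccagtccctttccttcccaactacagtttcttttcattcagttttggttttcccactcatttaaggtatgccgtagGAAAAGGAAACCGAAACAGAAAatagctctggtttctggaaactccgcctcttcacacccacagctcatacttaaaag
Oas3: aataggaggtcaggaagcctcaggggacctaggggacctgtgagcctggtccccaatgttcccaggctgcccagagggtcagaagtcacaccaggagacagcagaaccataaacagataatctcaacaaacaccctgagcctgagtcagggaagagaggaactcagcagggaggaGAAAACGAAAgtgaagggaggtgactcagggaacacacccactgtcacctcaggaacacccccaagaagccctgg

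In the NF-kB list 14 of 33 were lower and 3 higher. The apoptosis inhibitor *Birc2* rose 1.35-fold, and *Nfkbia*, the feedback inhibitor of NF-kB, was not called (209.8, 225 and 229 CPM against 207, 198 and 206 CPM). Among 46 tested genes of the NRF2, glutathione and antioxidant list, 13 were lower and 4 higher. *Gpx3*, a secreted glutathione peroxidase made by the tubule, rose 1.79-fold, from 1815, 1926 and 1875 CPM to 3352, 3201 and 3475 CPM (0.84 ± 0.05, edgeR adjusted p = 6.37e-14). The glutathione transferases *Gsta3* and *Mgst2* fell 3.72-fold (23.6, 31.1 and 24.9 CPM to 6.97, 6.89 and 7.49 CPM) and 2.34-fold (42.4, 47.2 and 42.9 CPM to 19, 18.1 and 19.5 CPM). *Sod1*, superoxide dismutase 1, did not pass the test, at 808, 869 and 859 CPM against 806, 844 and 871 CPM.

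Transcripts of the mitochondrial genome and the RNAs *Malat1* and *Neat1* took a larger part of the libraries with the inhibitor. Mitochondrially encoded transcripts made up 7.61 ± 0.519% (SD, n = 3) of gene counts in controls and 11.8 ± 0.562% with the inhibitor, 1.55 times as much. *Malat1* made up 2.07 ± 0.0619% and 3.43 ± 0.146%, and *Neat1* 0.0483 ± 0.003% and 0.0813 ± 0.00141%. In each case the 3 inhibitor libraries lay above the 3 controls, and the exact two-sided permutation p of 0.1 is the smallest that 3 against 3 allows. *Malat1* and *Neat1* are both long non-coding RNAs of the nucleus. In the list of such RNAs 2 of 17 tested were higher (11.8%), near the background, and 3 lower.

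By gene, 5 of 7 tested mitochondrially encoded mRNAs were higher and none lower, in both fits, with a median of 0.65. Of the 13 such mRNAs only 9 had any count in the 6 libraries, for a reason that was not tested. Together the 13 summed to 37914 to 44436 CPM in controls and 58068 to 76797 CPM with the inhibitor. The share above covers every gene of the mitochondrial genome that was counted, not these mRNAs alone. *mt-Co1*, of complex IV, rose 1.80-fold, from 971, 952 and 1016 CPM to 1708, 1727 and 1848 CPM. *mt-Nd5*, of complex I, rose 1.68-fold, from 1336, 1366 and 1378 CPM to 2225, 2202 and 2445 CPM. *mt-Cytb*, of complex III, rose 1.57-fold, from 9116, 8794 and 10002 CPM to 12576, 14001 and 17111 CPM, and *mt-Nd1* 1.33-fold. *mt-Nd2* (5492, 6235 and 6944 CPM to 7039, 8489.7 and 9917 CPM) did not pass the test, and *mt-Nd6*, the only one of these mRNAs on the light strand, was at 20.5, 23.3 and 19.5 CPM against 19, 27.2 and 20.9 CPM. Among the nuclear genes of oxidative phosphorylation, of 76 tested, 1 was higher and 9 lower, none in the fit of 12, with a median of -0.01. The sign of that median turned without control replicate 3 and without NNMTi replicate 1. *Atp5a1*, of the ATP synthase, was at 572, 542 and 531 CPM against 495, 507 and 554 CPM. Leaving the mitochondrial genes and *Malat1* out before scaling gave 2919 calls in place of 2931, 2914 of them shared.

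Genes of glycolysis and hypoxia rose more often than they fell: 12 of 37 were higher (32.4%) and 4 lower, 7 and 2 in the fit of 12. *Pdk1*, which inhibits pyruvate dehydrogenase, rose 1.65-fold, from 23, 25 and 25.2 CPM to 34.3, 43.2 and 43.6 CPM. *Bnip3*, a receptor for mitophagy, rose 1.67-fold, from 37.8, 39.0 and 41.1 CPM to 62.2, 66.9 and 68.3 CPM, and *Ndrg1*, a hypoxia-responsive gene, 1.44-fold. The enzymes *Hk2*, hexokinase 2, and *Ldhb*, lactate dehydrogenase B, fell 1.52-fold (73.8, 69.8 and 72.7 CPM to 47.5, 44.7 and 50.4 CPM) and 1.58-fold. *Pkm*, pyruvate kinase, was at 444, 468 and 500.1 CPM against 443, 468 and 523 CPM and *Aldoa*, aldolase, at 687, 736 and 755 CPM against 770.2, 776 and 861 CPM. Neither was called.

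In the lysosome and autophagy list 14 of 57 were higher and 5 lower, but only 2 and 2 in the fit of 12. *Lamp2*, a lysosomal membrane protein, rose 1.30-fold, from 495, 523 and 481 CPM to 651, 667 and 631 CPM, whereas the lysosomal hydrolase *Gusb* fell 1.59-fold, from 52.9, 46.6 and 49.4 CPM to 28.6, 31.1 and 34.2 CPM. *Ctsd*, cathepsin D, was at 2060.2, 2092 and 2207 CPM against 2104, 2029.6 and 2197 CPM. Of 57 integrated stress and unfolded protein response genes 10 were higher and 11 lower: *Trib3* and *Ddit3*, both targets of ATF4, rose 1.51-fold and 1.36-fold (*Ddit3* from 141, 150.1 and 139 CPM to 197, 206 and 182 CPM), while *Atf4* (742, 804 and 780.4 CPM against 785, 744 and 733 CPM) and the chaperone *Hspa5* (1299.8, 1293 and 1308 CPM against 1246, 1273 and 1389 CPM) were not called.

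**Figure D4:**
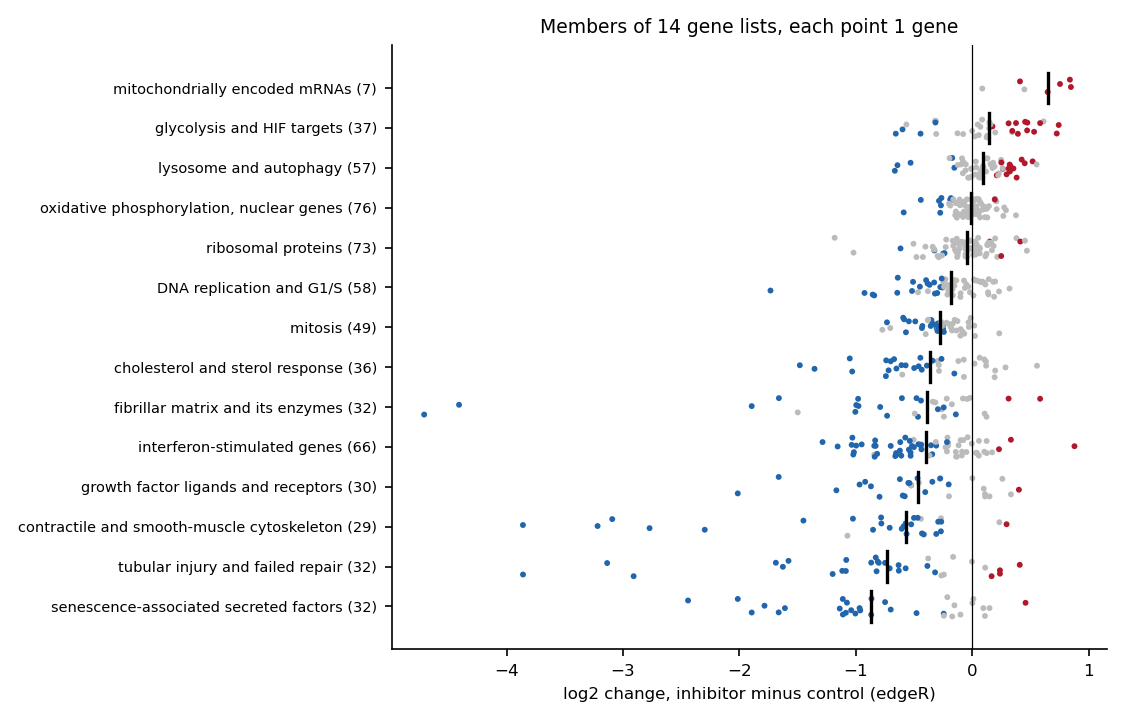
Members of 14 of the gene lists. Each point is 1 tested gene at its edgeR log2 change (inhibitor minus control), blue where called lower, red where called higher and grey where not called. Black bars are list medians, from -0.87 for senescence-associated secreted factors to 0.65 for mitochondrially encoded mRNAs. Oxidative phosphorylation and ribosomal protein genes crowd around 0.

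The rule for the largest changes took genes at 10 CPM or more in the higher group that were called in both fits without overlap. Among the falls it gave, beside genes above, *Serpinb9b*, a serpin (11.1, 9.29 and 10.2 CPM to 0.787, 0.967 and 0.671 CPM), *Upk3b*, a uroplakin of mesothelium and urothelium (26.1, 31.1 and 26.6 CPM to 4.27, 3.14 and 2.57 CPM), and *Tnfaip2*, a TNF-induced gene (14.7, 14.7 and 16.9 CPM to 2.59, 1.45 and 3.02 CPM). They fell 12.5-fold, 8.34-fold and 6.49-fold. Among the rises, after *Bmf*, came *Kifc2*, a kinesin (3.09, 5.82 and 5.67 CPM to 14.5, 12.8 and 15.9 CPM), *Ppl*, periplakin of desmosomes (5.39, 7.68 and 5.88 CPM to 17.5, 17.4 and 17.8 CPM), and *Sned1*, an extracellular matrix protein (77.9, 94.3 and 108 CPM to 228, 251 and 285 CPM). They rose 2.96-fold, 2.79-fold and 2.73-fold. *Slc30a1*, which exports zinc, rose 2.25-fold, from 11.1, 12.8 and 12.1 CPM to 27.2, 26.6 and 26.9 CPM, while 14 of 17 metallothionein and zinc transporter genes were not called. *Clic5*, a chloride channel protein of the podocyte list, and *Ltb4r1*, a leukotriene receptor chosen after its values were seen, had 54 and 75 counts over the controls and none with the inhibitor. With the inhibitor set at a floor of 3 counts over the group the ratios are 17.7 and 24.6, and the exact 95% counting intervals begin at 13.9 and 19.5. Of the 10 tested podocyte-list genes 7 were lower, including *Nes*, nestin, at 169, 187 and 169 CPM against 108, 105 and 110.5 CPM, while *Nphs1* had no count.

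The design also allows the inhibitor effect to be compared with that in TGFβ-treated cells, through the interaction in the fit of 12 libraries. The inhibitor comparisons without and with TGFβ share no library, whereas the interaction contains both. Of the 2931 genes called without TGFβ, 2412 changed with the same sign in TGFβ-treated cells. There 729 were called in the same direction and 31 in the opposite one. The same-sign share over all genes tested was not computed. In TGFβ-treated cells 1416 genes were called (10.4%). The difference between the effects itself was called for 151 of 13581 genes (1.11%). Taken as the effect with TGFβ minus that without it, the difference was positive for 87 (0.641%) and negative for 64 (0.471%). A positive difference includes falls that were smaller with TGFβ on the log2 scale. Of the 151, 116 were also called in inhibitor against control. That overlap is partly built in, since the interaction contains the same difference from the same 6 libraries. Library TGFβ replicate 3 held 2584117 counts, far fewer than the others, and without it 202 genes were called, 143 of them shared.

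*Acta2* fell by 3.21 ± 0.16 without TGFβ. In TGFβ-treated cells it stood at 873 CPM without and 675 CPM with the inhibitor, a log2 change of -0.37 ± 0.12 that was not called (edgeR adjusted p = 0.052). The difference between the effects was 2.84 ± 0.20 (edgeR adjusted p = 3.78e-07). *Cnn1*, *Postn* and *S100a4* fell in both settings and fell less on the log2 scale in the presence of TGFβ, with differences of 2.51 ± 0.39, 1.93 ± 0.26 and 1.47 ± 0.20. In mean CPM, *Cnn1* went from 19.7 to 1.35 without TGFβ and from 47.4 to 19.2 with it. *Postn* went from 73.5 to 2.81 and from 484 to 70.6, and *S100a4* from 136 to 27.7 and from 100 to 57.0. For *Cnn1* and *Postn* the fall in CPM was thus larger with TGFβ. *Postn* still fell by 2.77 ± 0.15 with TGFβ. *Igfbp2* and *Ccnd2* fell without TGFβ and were not called with it (edgeR adjusted p = 0.595 and 0.508), and their differences passed the test. *Ankrd1* fell by 0.94 ± 0.11 without TGFβ and rose by 0.45 ± 0.11 with it. *Sox9* rose by 0.41 ± 0.09 without TGFβ and fell by 1.10 ± 0.10 with it, and *Rap1gap*, which switches off the GTPase RAP1, rose by 0.92 ± 0.16 and fell by 1.12 ± 0.25. *Gpnmb*, a lysosomal glycoprotein, fell by 1.11 ± 0.21 without TGFβ. With TGFβ it went from 3.35 CPM to 0.120 CPM, below the floor of 3 counts in a library (0.324 to 0.383 CPM in that group), so its fitted change there is limited by counting.

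**Figure D5:**
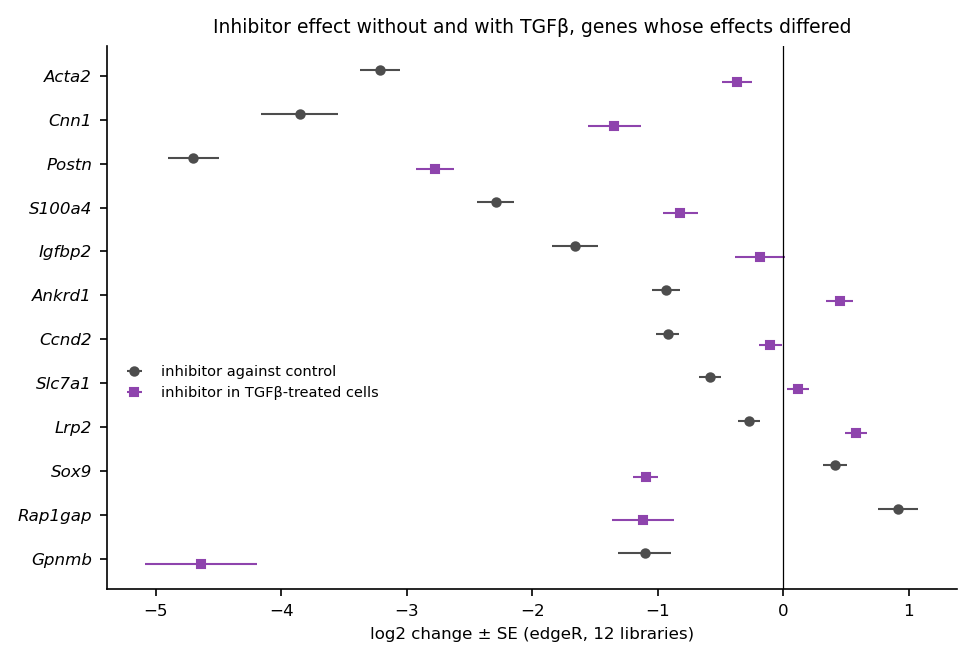
Inhibitor effect as log2 change ± SE from edgeR over 12 libraries, for 12 genes whose effects without TGFβ (grey circles, inhibitor against control) and with TGFβ (purple squares, TGFβ with inhibitor against TGFβ) differed by the interaction test. Acta2 lies at -3.21 without and -0.37 with TGFβ, and the signs are opposite for Ankrd1, Slc7a1, Lrp2, Sox9 and Rap1gap. In this fit the fall of Lrp2 without TGFβ (edgeR adjusted p = 0.0652) and the rise of Slc7a1 with it (0.434) were not called. Gpnmb with TGFβ rests on counts below the floor.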

How the data were processed

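Gene expression was measured by 3′ mRNA sequencing (QuantSeq FWD, 100 ng of RNA per library). The authors deposited whole-number counts per gene. Per the submitters' processing notes, STAR and HTSeq were used. The only build listed there, GRCh38, is human while the identifiers are mouse, so no coordinates come from the table. The strand of counting is not given in the sources used here. Of 161 genes named, 82 overlap another annotated gene (GENCODE M21), 25 of them on the same strand (*Anpep*, *Ctsd*, *Ddit3*, *Fgfr2*, *Foxm1*, *Gata3*, *Ifi203*, *Islr*, *Ltbp1*, *Malat1*, *Mgst2*, *Nampt*, *Neat1*, *Pdgfb*, *Per3*, *Pkm*, *Prom1*, *S100a4*, *Slc25a51*, *Slc43a2*, *Sned1*, *Srf*, *Tgfbr3*, *mt-Nd1*, *mt-Nd2*), and their values are uncertain.

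Rows naming no gene were left out of tests: reads outside genes (24.1 to 26.8% of counts in the 6 libraries) and ambiguous ones (0.613 to 0.687%). The 6 libraries were filtered (filterByExpr), scaled (TMM) and tested by quasi-likelihood F-tests in edgeR 4.0.16 (R 4.3.3), with Benjamini-Hochberg adjustment at 0.05. The procedure was tested on simulated data. Samples were grouped by their labels. Alternatives were scaling, filters, DESeq2 1.42.0, a replicate block, leaving out libraries, and all 12 libraries in 1 fit. Counting intervals are exact at 95%, and with the floors of 3 counts cover counting error only. The 47 gene lists and the rule that selected 394 genes (a panel, the largest changes, up to 5 members per list and direction and 2 not called) were chosen with earlier results of these data known. The text names mainly those whose call held under every alternative, and some items are not reported here. RefSeq promoters (GRCm38.p6) supplied the sequences.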

Additional observations from a re-analysis of the deposited data

Results flagged for a closer look

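For 19 of the genes named outside the captions, the inhibitor effect differed between cells without and with TGFβ. The test was the interaction in edgeR over 12 libraries. The values are the effect with TGFβ minus the effect without it, on the log2 scale. The difference was positive for the contractile and mesenchymal genes *Acta2* (2.84), *Cnn1* (2.51), *Tagln* (2.46), *Cnn2* (0.88) and *S100a4* (1.47) and for the matrix gene *Postn* (1.93). It was also positive for *Ankrd1* (1.38) and *Vgll3* (1.51) of the YAP list, for the growth-related *Ccnd2* (0.82), *Dusp6* (0.87), *Pdgfb* (1.26) and *Igfbp2* (1.47) and for *Slc7a1* (0.70). The difference was negative for *Gpnmb* (-3.53), *Rap1gap* (-2.04), *Col1a1* (-1.76), *Sox9* (-1.51), *Ly6a* (-1.14) and *Ndrg1* (-0.69). With TGFβ and the inhibitor *Gpnmb* lay below the floor of 3 counts in a library, so its difference is limited by counting. When each of the 12 libraries was left out in turn, the edgeR call ended in 8 fits for *Tagln* (highest adjusted p = 0.093), 7 for *Pdgfb* (0.115), 6 for *Col1a1* (0.126), 5 for *Cnn2* (0.112), 4 for *Dusp6* (0.0699), 4 for *Ndrg1* (0.068) and 2 for *Ly6a* (0.0685). The call for *Tagln* also ended with the replicate block (edgeR adjusted p = 0.0617) and with no filter on low counts (0.0788), and that for *Pdgfb* with library-size scaling (0.0518).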

How the results depend on the processing

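The number of genes called by edgeR was 2931 for the inhibitor alone. It was 1123 with all 12 libraries in the fit, of which 1094 were shared. It ranged from 2070 to 2910 when 1 of the 6 libraries was left out, lowest without control replicate 2. The interaction calls rose from 151 to 306 with no filter on low counts and to 266 in DESeq2, and leaving out 1 of the 12 libraries gave 65 (without control replicate 2) to 399 (without TGFβ replicate 2). The rise in the mitochondrial share was 4.19 percentage points of gene counts and 3.11 of all counts, where reads outside genes enlarge the denominator. Scaling by library size alone moved 36 of the 47 list medians, all downward. The lists whose sign it turned include fatty acid oxidation (-0.03) and, as given above, the histone and DNA methylation enzymes. Apart from that denominator, the cause of these differences was not tested. No named gene that was called changed its sign under any alternative run. Mainly genes whose call held under every alternative were named, so this was largely fixed by that choice. The sign of 10 named genes that were not called did change, among them *Pkm* and *Hspa5*. Depth limits the genes with few counts, such as *Havcr1* and *Slc6a18*.

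The replicate numbers are shared between groups. Deviations of same-numbered libraries correlated at 0.0382, 0.0189 and 0.119. Control 2 correlated best with NNMTi 1 (0.0553), and each other control with the inhibitor library of its own number. These correlations are small and not independent of each other. Whether same-numbered libraries share more than a number was not tested. With the replicate block 3348 genes were called for the inhibitor alone and 119 for the interaction.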

Other observations

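Further genes outside the lists above also changed. Of 17 tested clock genes 3 were higher and 2 lower: *Per3*, a clock repressor, rose 1.64-fold, from 52.0, 53.7 and 53.1 CPM to 86.1, 90.8 and 83.1 CPM (edgeR adjusted p = 5.44e-08). Of 23 tested amino acid transporters 4 were higher and 6 lower. *Slc7a1*, a carrier of cationic amino acids, fell 1.5-fold, from 247, 273 and 269 CPM to 179.7, 166 and 179 CPM, and *Slc43a2*, a carrier of large neutral amino acids, rose 1.37-fold. *Irs1*, an adaptor of the insulin receptor chosen after its values were seen, fell 1.87-fold, from 123, 117 and 113 CPM to 59.7, 65.8 and 63.1 CPM.

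*Txnip*, a glucose-responsive inhibitor of thioredoxin that was also chosen after its values were seen, rose 2.30-fold, from 690.2, 617 and 610.4 CPM to 1448, 1521 and 1439.8 CPM. Its edgeR adjusted p was 3.81e-17 in the 6 libraries and 0.193 in the fit of 12, where the TGFβ group stood at 265 ± 171 CPM (SD, n = 3).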
